A study of Mus musculus with 743 samples.

Results

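The receptors through which Schwann cells (SCs) hold on to laminin and collagen were followed at postnatal day 1, when some SCs divide and others have begun to make myelin. The 9 genes were listed by name among the 25700 genes of the count table. They encode the integrin alpha chains Itga1, Itga2, Itga6, Itga7 and Itgav, the beta chains Itgb1, Itgb4 and Itgb8, and the adhesion receptor Adgrg6. The question was whether the set of alpha and beta chains differed between dividing SCs, SCs at the onset of myelination and the rest.

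Cells came from sciatic nerves of P1 mouse pups that carried a beta-actin dsred transgene and expressed eYFP after recombination by P0cre, a Cre driven by the promoter of the myelin protein P0 that acts in the SC lineage. All cells shared this background, and no treatment, mutant or untreated control was part of the design. Single eYFP-positive cells were sorted into wells and processed with Smart-seq2, a full-length protocol that counts reads and not molecules. The 2 plates held cells of independent pools, each made of male and female mice in equal numbers, so the plate was the replicate (n = 2).

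Of 743 wells, 621 cells with at least 1500 detected genes were kept. Cycling SCs were those with at least 50 reads per 1000000 (CPM) of Mki67 and Top2a together, 2 genes of dividing cells, and made up 53 cells on plate 1 and 57 on plate 2. Promyelinating SCs were not cycling and had at least 50 CPM of Ncmap, a myelin-associated gene, and made up 59 and 60 cells. The remaining 175 and 217 cells are called other SCs, a mixture of stages. Few cells lay near the limits: 5 cells had 20 to 50 CPM of the cycling genes and 4 had 50 to 100 CPM, and for Ncmap both numbers were 5. In 1 cell both limits were passed, and it was counted as cycling. Reads were summed over the cells of each class on each plate, giving 6 sums of 45073128 to 172878954 reads.

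The classes carried the markers of their names. The list of 10 promyelinating markers, which did not include Ncmap, summed to 17862 and 17881 CPM in promyelinating SCs on plates 1 and 2 and to 5496 CPM or less elsewhere. The 7 cycling markers summed to 4773 and 4338 CPM in cycling SCs and to 90.3 CPM or less elsewhere. The 4 SC markers summed to 1176 to 2593 CPM in all 6 sums. Each list of markers of other nerve cells summed to 56.8 CPM or less, and Pdgfra, Ptprc, Tyrobp, Cdh5, Kdr, Acta2, Rgs5, Lypd2 and Isl1 had no read in any class. Of the other such markers, Pdgfrb (mural cells) had reads in 27 of 119 promyelinating, 26 of 392 other and 0 of 110 cycling cells, at 43.7 and 13.8 CPM in promyelinating and 20.7 and 37.8 CPM in other SCs. Dcn (fibroblasts) had reads in 13, 11 and 1 of these cells, and Cldn1 (perineurial cells) in 18, 6 and 2. Their part in the results was not tested.

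An integrin is a dimer of 1 alpha and 1 beta chain that spans the membrane and ties the extracellular matrix to the actin or intermediate filament skeleton. In nerves, SCs lay down a basal lamina of laminins and collagens and need beta1 integrin to sort axons before myelination. Alpha6 joins beta1 or beta4 and alpha7 joins beta1 to bind laminin, alpha1 and alpha2 join beta1 to bind collagens, and alphav joins several beta chains, among them beta8, whose only known partner it is. Adgrg6, also called Gpr126, is an adhesion G protein-coupled receptor that raises cyclic AMP in SCs and is required for myelination.

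The bases in front of the start sites of the receptors that differed most in level between classes are printed here, with the widely used chain Itgb1 for comparison. RefSeq promoter entries (GRCm38.p6) matched 6 of the 9 members, those of Itga1, Itga2, Itgav, Itgb1, Itgb8 and Adgrg6. Each line gives the 250 bases before the RefSeq start site. For Itgb8 and Adgrg6 this start lies 526 and 623 bases inside the gene span of the annotation used for positions here, and for the 4 others the starts are the same. Capitals mark matches on either strand to a GC box, whose letters were GGGCGG. They also mark any CCAAT box or TATA box (the latter searched as TATAAA), and any SOX motif, searched as ACAAAG. An EGR motif was searched as GCGGGGGCG, an AP-1 motif as TGACTCA, a cyclic AMP response element as TGACGTCA and a TEAD motif as GGAATG.
Adgrg6, chr10:14545037-14545286, minus strand: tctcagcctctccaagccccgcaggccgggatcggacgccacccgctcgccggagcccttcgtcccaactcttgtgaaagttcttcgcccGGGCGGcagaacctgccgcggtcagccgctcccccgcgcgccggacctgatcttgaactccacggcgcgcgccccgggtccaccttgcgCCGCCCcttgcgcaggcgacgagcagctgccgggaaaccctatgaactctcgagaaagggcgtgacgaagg
Itgav, chr2:83724147-83724396, plus strand: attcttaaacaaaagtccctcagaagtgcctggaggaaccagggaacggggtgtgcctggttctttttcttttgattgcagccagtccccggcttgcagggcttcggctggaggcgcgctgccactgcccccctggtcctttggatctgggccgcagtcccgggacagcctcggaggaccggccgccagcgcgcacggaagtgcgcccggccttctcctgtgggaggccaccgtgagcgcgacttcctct
Itga1, chr13:115101965-115102214, minus strand: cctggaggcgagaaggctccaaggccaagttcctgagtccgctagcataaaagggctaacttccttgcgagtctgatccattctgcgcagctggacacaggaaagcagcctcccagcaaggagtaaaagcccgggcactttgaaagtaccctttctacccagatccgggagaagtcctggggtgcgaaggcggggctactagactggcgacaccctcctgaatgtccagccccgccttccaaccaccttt
Itga2, chr13:114932101-114932350, minus strand: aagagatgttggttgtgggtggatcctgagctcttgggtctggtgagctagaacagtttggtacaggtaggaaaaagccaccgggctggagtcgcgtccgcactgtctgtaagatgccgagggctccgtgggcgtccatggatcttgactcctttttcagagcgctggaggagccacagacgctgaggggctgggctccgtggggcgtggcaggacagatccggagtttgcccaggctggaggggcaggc
Itgb1, chr8:128685404-128685653, plus strand: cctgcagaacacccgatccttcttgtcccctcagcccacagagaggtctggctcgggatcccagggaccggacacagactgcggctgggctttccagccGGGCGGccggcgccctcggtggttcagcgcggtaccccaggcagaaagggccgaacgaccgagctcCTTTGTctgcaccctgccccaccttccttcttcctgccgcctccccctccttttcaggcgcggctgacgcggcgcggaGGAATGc

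Adgrg6 held 2 GC boxes, 160 and 71 bases before the start. Itgb1 held 1 GC box at 151, 1 SOX match at 85 and 1 TEAD match at 7 bases before the start, and Itgb8 held 1 CCAAT match. The windows of Itga1, Itga2 and Itgav held 0 matches, which says only that these letters are not in them. Among 32851 promoter windows of the same length, 32.7% held a GC box, 33.8% a CCAAT box, 12.4% a TATA box, 16.5% the SOX motif, 2.57% the EGR motif, 4.46% the AP-1 motif, 1.55% the cyclic AMP response element and 12.6% the TEAD motif. The EGR motif and the GC box can share bases.

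All 9 members had reads in every class on both plates and passed the filter on low counts. Per kilobase of exon, Itga6 (70.6 ± 17.6 CPM per kb, SD, n = 2 plates, all cells) and Itgb1 (64.1 ± 23.2 CPM per kb) stood far above the others and did not differ beyond the spread between plates. Itgb8 followed with 13.1 ± 1.44 CPM per kb. Then came Itga2 with 8.57 ± 2.41, Adgrg6 with 6.57 ± 1.29, Itgb4 with 5.66 ± 1.14 and Itga7 with 5.59 ± 1.2 CPM per kb, whose neighbours in this order did not differ beyond their spread. Itgav (3.29 ± 0.565 CPM per kb) and Itga1 (2.57 ± 0.783 CPM per kb) had the lowest levels per kilobase and were not separated from each other. The place of Itga1 depends on its exon length of 18599 bases. Without division by length it took 47.8 ± 14.6 CPM, against 45.2 ± 9.73 for Itga7, 39.7 ± 7.98 for Itgb4 and 35.3 ± 6.07 for Itgav. The chains of the alpha6beta1 laminin receptor were thus the most abundant of the 9.

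**Figure D1:**
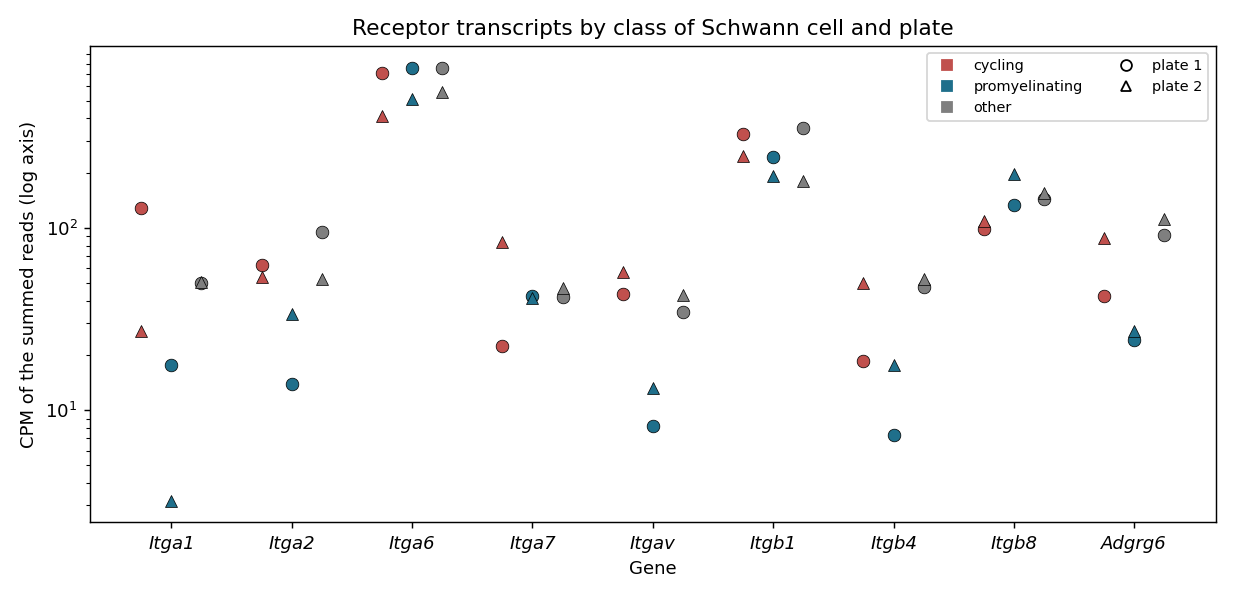
Reads of the 9 receptor genes in the summed cells of each class, in CPM on a log axis, with circles for plate 1 and triangles for plate 2. Itga6 lies highest in every sum, between 412 and 760 CPM, with Itgb1 between 181 and 355 CPM, and the promyelinating sums of Itga1, Itga2, Itgav, Itgb4 and Adgrg6 lie below both sums of other SCs.

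The laminin-binding alpha chains were described first. Itga6 (chr2:71745616-71858416, plus strand; GRCm38 here and below) took 707 and 412 CPM in cycling SCs on plates 1 and 2, 759 and 510 CPM in promyelinating SCs, and 760 and 559 CPM in other SCs. Plate 1 was higher in every class, by 1.71, 1.49 and 1.36 times, and the classes overlapped. At least 1 read was found in 90.8% to 98.3% of cells of any class and plate. Promyelinating and other SCs differed by a log2 fold change of 0.02 (SE 0.323, adjusted p = 0.996; edgeR quasi-likelihood test, Benjamini-Hochberg over all 13289 genes tested). Itga6 was thus read in nearly every cell, and no difference between classes exceeded the spread between plates.

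Itga7 (chr10:128933818-128958282, plus strand) encodes the other laminin-binding chain measured here. Its level was 22.4 and 83.8 CPM in cycling SCs, 42.2 and 41.2 CPM in promyelinating SCs, and 41.8 and 47.1 CPM in other SCs. The cycling sums were the lowest and the highest of all 6, and 3 cells held 60.7% of the cycling reads on plate 2. Promyelinating against other SCs gave a log2 fold change of -0.01 (SE 0.601, adjusted p = 1). A read was found in 22.8% to 28.3% of the cells of any class and plate.

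The collagen-binding chains showed the fewest positive cells among promyelinating SCs. Itga1 (chr13:114953096-115101964, minus strand) took 129 and 27.2 CPM in cycling SCs, 17.7 and 3.19 CPM in promyelinating SCs, and 50.2 and 50.6 CPM in other SCs. Both promyelinating sums lay below all others, but the cycling sums lay on either side of the other SCs. A read of Itga1 was present in 4 of 59 and 1 of 60 promyelinating cells, against 22 of 53 and 19 of 57 cycling cells and 36 of 175 and 40 of 217 other cells. With each cell thinned to 100000 reads, the shares were 5.17% and 1.82% in promyelinating SCs (exact 95% binomial intervals 1.08 to 14.4% and 0.046 to 9.72%), 34.6% and 30.2% in cycling SCs, and 17.3% and 16.3% in other SCs. These intervals cover counting error only.

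Promyelinating against other SCs gave a log2 fold change of -2.18 for Itga1 (SE 0.928, adjusted p = 0.431, 4.55-fold), which did not pass the threshold of 0.05. Against cycling SCs it was -2.97 (SE 0.957, adjusted p = 0.127). With the plate as a block in the model, which the shared mice of a plate call for, the latter comparison reached an adjusted p of 0.0484 in edgeR. Levels of Itga1 rest on few cells, since 3 cells held 98.8% of its promyelinating reads on plate 1 and 1 cell held all of them on plate 2.

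Itga2 (chr13:114833081-114932100, minus strand) is the neighbour of Itga1, with 20995 bases and 1 annotated gene, Gm47776, between them. It took 63 and 54.1 CPM in cycling SCs, 13.9 and 33.7 CPM in promyelinating SCs, and 95.7 and 52.3 CPM in other SCs. The promyelinating sums were again below all 4 others, and plate 1 and plate 2 were in opposite order in promyelinating and in other SCs. Promyelinating against other SCs gave -1.57 (SE 0.563, adjusted p = 0.322), and against cycling SCs -1.36 (SE 0.56, adjusted p = 0.223). Thinned shares of cells with a read were 12.1% and 10.9% in promyelinating SCs, 26.9% and 32.1% in cycling SCs, and 25.6% and 14.9% in other SCs. In promyelinating SCs 3 cells held 82.2% of the Itga2 reads on plate 1 and 87.7% on plate 2.

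**Figure D2:**
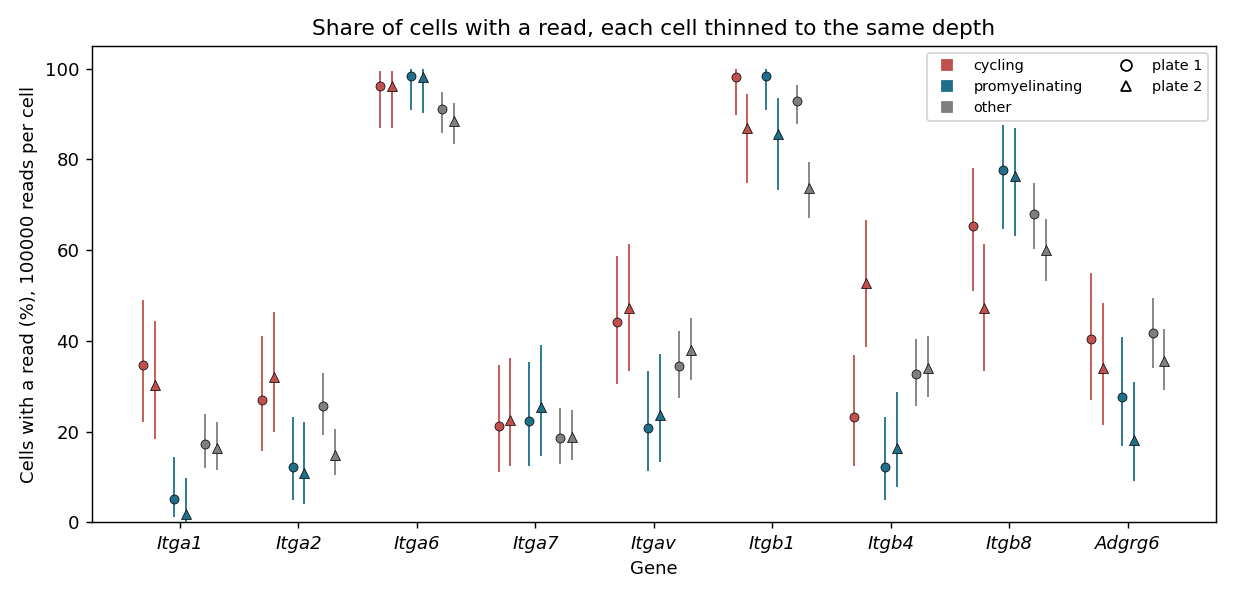
Share of cells with at least 1 read of each receptor gene, in percent, after each cell was thinned to 100000 reads, by class and plate, with exact 95% binomial intervals as bars. Itga6 and Itgb1 were found in 73.6% to 98.3% of cells, whereas Itga1 was found in 5.17% and 1.82% of promyelinating cells against 34.6% and 30.2% of cycling cells.

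Itgav (chr2:83724397-83806916, plus strand), the alpha chain of receptors for RGD-bearing ligands such as vitronectin, fibronectin and latent TGF-beta, was the only member called by the main test. It took 43.2 and 57.1 CPM in cycling SCs, 8.21 and 13.2 CPM in promyelinating SCs, and 34.8 and 43 CPM in other SCs. Promyelinating sums were the lowest on both plates, and cycling and other SCs were close. Against cycling SCs the log2 fold change was -2.28 (SE 0.55, adjusted p = 0.0496 in edgeR, 4.85-fold), just inside the threshold. Over 19 other settings this adjusted p ranged from 0.000263 to 0.17, and it stayed under 0.05 in 4 of them. It was above 0.05 in all 6 fits that left out a sum, from 0.0701 to 0.17.

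Compared with other SCs, Itgav gave -1.78 (SE 0.541, p = 0.0102, adjusted p = 0.212; edgeR). Reads were found in 32.2% and 36.7% of promyelinating cells, 62.3% and 66.7% of cycling cells and 51.4% and 56.2% of other cells, so fewer positive cells went with the lower sum. The sums of Itgav rest on few cells. In promyelinating SCs 3 cells held 55.8% of its reads on plate 1 and 67.5% on plate 2. In cycling SCs 3 cells held 42.6% and 67.1%.

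Among the beta chains, Itgb1 (chr8:128685654-128733200, plus strand), the partner of alpha1, alpha2, alpha6 and alpha7, took 330 and 250 CPM in cycling SCs, 245 and 192 CPM in promyelinating SCs, and 355 and 181 CPM in other SCs. Other SCs overlapped both other classes, both promyelinating sums lay below both cycling sums, and plate 1 was higher in each class. Promyelinating against other SCs gave -0.22 (SE 0.351, adjusted p = 0.928), and against cycling SCs -0.46 (SE 0.352, adjusted p = 0.499). Reads were found in 82.9% to 100% of cells, with the lowest share in other SCs of plate 2.

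Itgb4 (chr11:115974709-116008412, plus strand) pairs only with alpha6 and links laminin to intermediate filaments. It took 18.6 and 49.9 CPM in cycling SCs, 7.33 and 17.7 CPM in promyelinating SCs, and 47.3 and 52.4 CPM in other SCs. Promyelinating sums were below both sums of other SCs, but the sum on plate 2 lay close to that of cycling SCs on plate 1. The log2 fold change was -1.92 against other SCs (SE 0.69, p = 0.023, adjusted p = 0.323; edgeR) and -1.49 against cycling SCs (SE 0.682, adjusted p = 0.266). A read was found in 20.3% and 20% of promyelinating cells, and in 38.9% and 40.1% of other cells. In promyelinating SCs 3 cells held 79.8% of the Itgb4 reads on plate 1 and 82.4% on plate 2.

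Itgb8 (chr12:119158022-119238802, minus strand) joins alphav in a receptor that activates latent TGF-beta. Its level was 98.3 and 109 CPM in cycling SCs, 133 and 197 CPM in promyelinating SCs, and 144 and 155 CPM in other SCs. Both cycling sums were below the 4 others, and promyelinating sums fell on either side of other SCs. Promyelinating against cycling SCs gave 0.62 (SE 0.292, adjusted p = 0.28) and against other SCs 0.22 (SE 0.291, adjusted p = 0.9). Reads were found in 83.1% and 83.3% of promyelinating cells, the highest shares of the 3 classes.

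Adgrg6 (chr10:14402583-14545659, minus strand) took 42.2 and 87.9 CPM in cycling SCs, 24.4 and 27.3 CPM in promyelinating SCs, and 91.8 and 112 CPM in other SCs. Promyelinating sums were the lowest and close to each other, other SCs were the highest, and the groups did not overlap. Of all genes tested, 28.1% had both promyelinating sums below both sums of other SCs. The promyelinating sums of Adgrg6 rest on few cells, since 3 cells held 67.3% of the reads on plate 1 and 88.7% on plate 2. Against other SCs the log2 fold change was -1.90 (SE 0.45, p = 0.00262, adjusted p = 0.0985 in edgeR, 3.73-fold), which missed the threshold. Over 19 other settings the adjusted p ranged from 0.0018 to 0.671. It passed in 5 of them, with DESeq2, limma, thinned cells, no filter on low counts and cycling plate 1 left out. Against cycling SCs it was -1.37 (SE 0.443, adjusted p = 0.128). A read was found in 30.5% and 18.3% of promyelinating cells and in 44.6% and 42.4% of other cells.

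As a group, 0 of 9 members were called between promyelinating and other SCs, where 1.78% of all genes tested were called. At an unadjusted p under 0.05 in edgeR, 5 of 9 members (Itga1, Itga2, Itgav, Itgb4 and Adgrg6) were lower in promyelinating SCs, against 7.33% of all genes. These same 5 had both promyelinating sums below both sums of other SCs, a pattern met by 28.1% of all genes. The median log2 fold change of the members was -1.57, and -0.07 over all genes. The members were chosen with earlier results of these data known, so these shares and medians describe the list and are not independent evidence. By DESeq2, 2 members were called, Itgav and Adgrg6, where 7.58% of all genes were, and by limma 1, Adgrg6, where 2.84% were.

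Between promyelinating and cycling SCs 1 of 9 members was called, Itgav, against 5.93% of all genes. The count was 2 with the plate as a block (Itgav and Itga1), 3 with DESeq2 (Itgav, Itga1 and Adgrg6) and 2 with limma (Itga1 and Itga2), against 6.64%, 17.1% and 10.1% of all genes. At an unadjusted p under 0.05 in edgeR, 4 members were lower in promyelinating SCs, Itga1, Itga2, Itgav and Adgrg6, against 11.2% of all genes. The way the members were chosen limits this count as well. Between cycling and other SCs 0 of 9 were called, against 0.978% of all genes. At an unadjusted p under 0.05 there were 0 as well, and by DESeq2 and limma 0 were called.

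**Figure D3:**
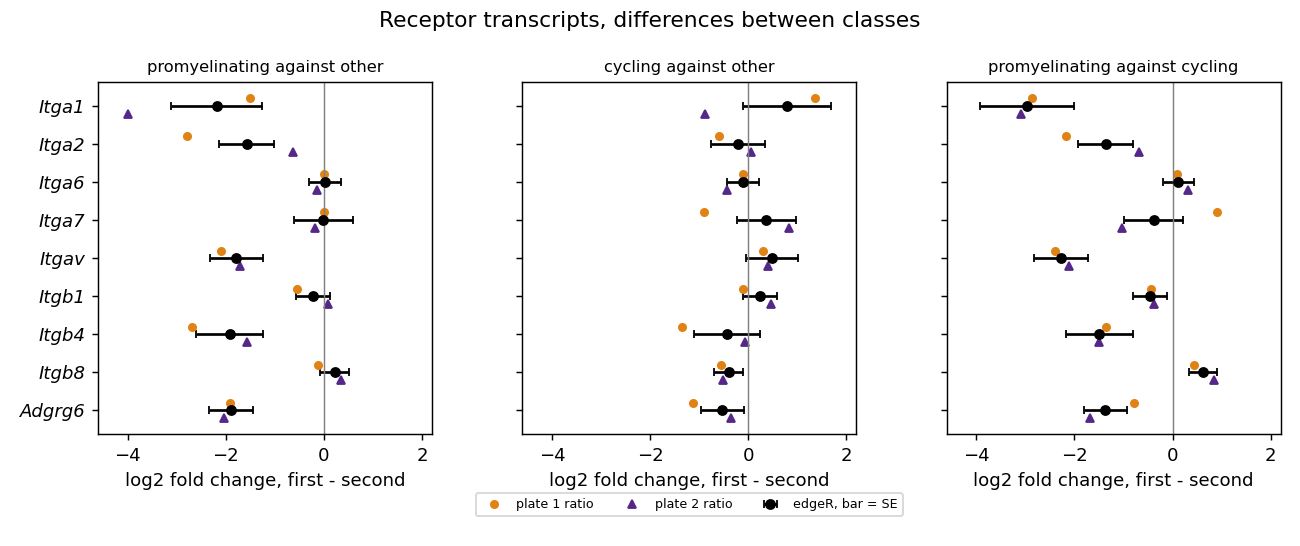
Log2 fold change of each receptor gene in the 3 comparisons, class named first minus class named second, with the edgeR estimate and its standard error in black and the log2 ratio of CPM on each plate in colour. Itga1, Itga2, Itgav, Itgb4 and Adgrg6 lie between -2.18 and -1.57 for promyelinating against other SCs, while Itga6, Itga7, Itgb1 and Itgb8 lie between -0.22 and 0.22.

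Other measures moved with the classes. The 8 genes of the dissociation response, immediate-early and heat shock genes, summed to 2205 and 2418 CPM in promyelinating SCs, 4726 and 7160 CPM in cycling SCs and 5842 and 6380 CPM in other SCs, with none at 0. Since cells were taken from the nerve by enzymes, all comparisons were repeated in cells whose sum of these genes lay below the median of all cells (3758 CPM), a choice made after seeing the data. This kept 74.6% and 76.7% of promyelinating, 47.2% and 36.8% of cycling and 48.6% and 41% of other cells. In these cells promyelinating against other SCs gave -0.49 for Itgav (SE 0.743, adjusted p = 1 in edgeR), less than in all cells. Cycling against other SCs gave 2.46 for Itgav in these cells (SE 0.781, adjusted p = 0.367), against 0.49 in all cells, and promyelinating against cycling SCs gave -2.95 (SE 0.798, adjusted p = 0.121). For promyelinating against other SCs the values were -1.65 for Adgrg6 (SE 0.581), -2.29 for Itga2 (SE 0.712), -1.96 for Itga1 (SE 1.04) and -1.37 for Itgb4 (SE 0.99), with 0 members called.

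Median reads per cell were 905794 and 831680 in promyelinating, 950150 and 795029 in other and 901677 and 701288 in cycling SCs. At 100000 reads per cell they had a median of 3308 and 3149 genes, against 2436 and 2519 in other SCs and 3138 and 3096 in cycling SCs. A list of 8 markers of immature SCs, all of them with reads, summed to 338 and 425 CPM in promyelinating, 950 and 791 CPM in other and 1113 and 1054 CPM in cycling SCs. Within it Nes went the other way, with 155 and 224 CPM in promyelinating, 64.1 and 47.2 CPM in other and 52.3 and 70.2 CPM in cycling SCs. Gap43 overlapped between promyelinating and other SCs. The 3 perineurial genes, of which Lypd2 was at 0, summed to 39.4 and 39.7 CPM in promyelinating, 12 and 15 CPM in other and 14 and 9.41 CPM in cycling SCs. The paper uses Itgb4 itself, beside Slc2a1, to label perineurial cells at P60. Here Slc2a1 had reads in 13.2% of the 228 cells with a read of Itgb4 and in 13.2% of the 393 without. For Cldn1 the shares were 1.75% and 5.6%. The part of the immature and perineurial lists in the results was not tested.

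The make-up of the integrin family followed from these levels. With reads divided by exon length, Itga6 made up 71.1% and 60.3% of all alpha chain reads in cycling SCs, 90.2% and 82.2% in promyelinating SCs, and 74.1% and 73% in other SCs. The promyelinating shares were the highest on both plates, although the sums of Itga6 itself overlapped between classes. Itga1, Itga2 and Itgav each made up less of all alpha chain reads there than in other SCs of the same plate. Itga1 made up 1.02% and 0.249% in promyelinating SCs, against 2.37% and 3.2% in other SCs. For Itgav the shares were 0.819% and 1.79%, against 2.85% and 4.71%. For Itga2 they were 2.09% and 6.88%, against 11.8% and 8.63%, so plate 2 differed little. Itga4, which is not a member, made up 0.0221% and 0.882%, against 3.16% and 2.52%. Itga7 went the other way, with 5.59% and 7.41%, against 4.55% and 6.86%.

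Itgb1 made up 79% and 66.1% of beta chain reads in cycling SCs, 62.5% and 58.2% in promyelinating SCs, and 63.6% and 44.5% in other SCs. Itgb8 made up 8.69% and 10.7%, 12.5% and 22.1%, and 9.48% and 14.1% in the same order, and Itgb4 2.6% and 7.68%, 1.09% and 3.12%, and 4.93% and 7.5%. Itgb3, which is not a member and pairs with alphav, held 7.66% and 12.4% in cycling, 17.5% and 12.3% in promyelinating and 18.5% and 29.4% in other SCs. Per kilobase, Itgb1 was the largest beta chain in all 6 sums, while in CPM Itgb8 (197) lay above Itgb1 (192) in promyelinating SCs of plate 2, and the order of Itgb8 over Itgb4 was the same in each.

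The ratio of Itgb8 to Itgav, the chains of 1 receptor, was taken per length. It was 2.21 and 1.86 in cycling SCs, 4 and 3.51 in other SCs, and 15.7 and 14.5 in promyelinating SCs. The ranges of the 3 classes did not overlap, but few cells held most of the promyelinating reads of Itgav. The ratio of Itgb4 to Itga6 was 0.0339 and 0.156 in cycling, 0.0801 and 0.121 in other and 0.0124 and 0.0447 in promyelinating SCs, where the cycling values overlapped both other classes. No test was run on shares and ratios, which rest on 2 plates.

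**Figure D4:**
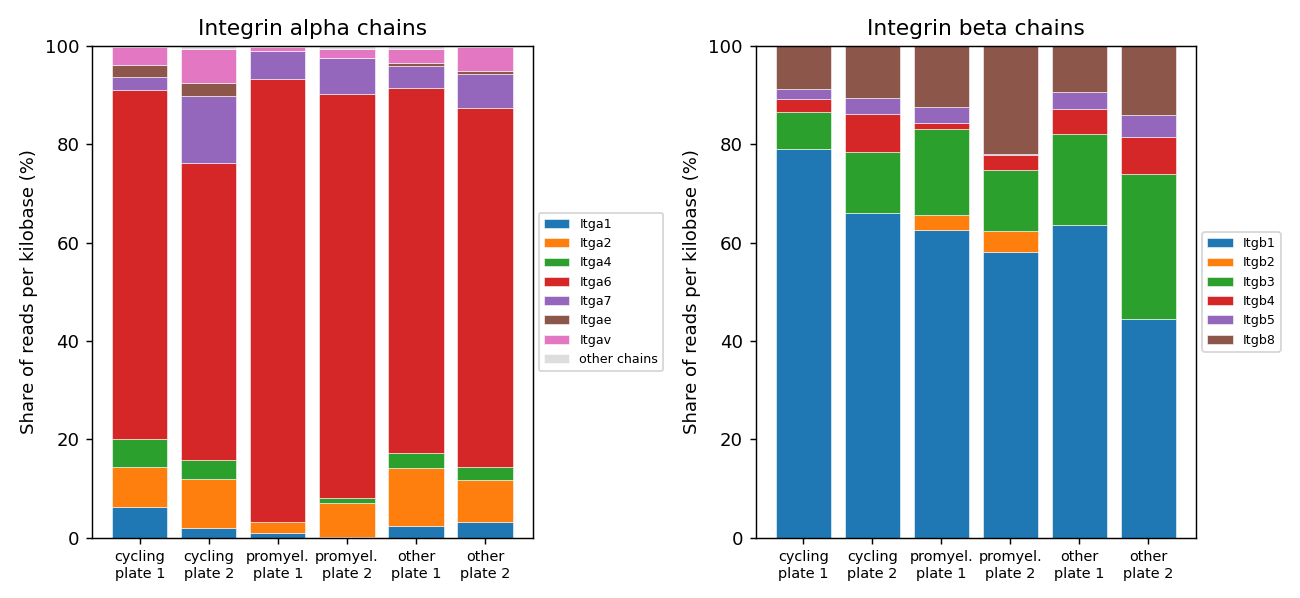
Share of each integrin chain in the reads per kilobase of all alpha chains (left) and all beta chains (right), in percent, for each class and plate, as stacked bars that add to 100%. Itga6 reaches 90.2% and 82.2% of alpha chains in promyelinating SCs, and Itgb1 is the largest beta chain in every bar, from 44.5% to 79%.

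After thinning, promyelinating cells had reads of a mean of 3.74 and 3.56 of the 9 members, cycling cells of 4.5 and 4.49 and other cells of 4.22 and 3.8. The partner chains Itgav and Itgb8 met in 23.7% and 22.2% of all cells (product of their shares 23.2% and 22.5%). The neighbours Itga1 and Itga2 met in 7.55% of cells on plate 1 (product 4.14%) and 3.48% on plate 2 (product 2.76%). These are descriptions over cells that share their plate, mice and depth.

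For each member with a read in at least 20% of cells on each plate, the 3 genes with the most similar pattern over the 287 and 334 cells were sought among 4926 genes, by the lower of the plates' Pearson correlations of log2(CPM + 1). Itga1 and Itga2 did not reach that share. The highest value was 0.279, between Itgb4 and Ngfr, the low-affinity neurotrophin receptor of immature SCs, followed for Itgb4 by S1pr3 (0.238) and Cavin1 (0.236). Itgav was most like Entpd2 (0.222), Pam (0.215) and Akap12 (0.213), and Itga6 most like Map3k4 (0.193), Prx (0.170) and Sptan1 (0.157). For Adgrg6 they were Egr3 (0.188), Cebpd (0.161) and Epha5 (0.151), for Itgb8 Itih5 (0.176), Ccnd2 (0.163) and Serpine2 (0.159), for Itga7 Sparc (0.164), Tspan15 (0.159) and Phldb1 (0.159), and for Itgb1 Agpat3 (0.138), Fkbp2 (0.116) and Sec24a (0.116). All these values are weak.

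The ligands were read from the same cells. Between cycling and other SCs, 0 of the 154 tested genes of the pathway lists described here were called by edgeR, against 0.978% of all genes. At an unadjusted p under 0.05 there were 8, against 1336 of all 13289. DESeq2 called 7 of them there (Adcy9, Adgrl2, Fyn, Itgb1bp1, Itgb3, Lair1 and Tgfb2), against 5.97% of all genes, and limma 0, against 1.73%. Over the 19 other settings Fyn and Itgb3 were each called there in 1. For promyelinating against other SCs the shares of all genes called were 1.78% (edgeR), 7.58% (DESeq2) and 2.84% (limma), with 1483 genes at an unadjusted p under 0.05 in edgeR. Against cycling SCs they were 5.93%, 17.1% and 10.1%, with 2665 genes. Of the laminin chains, 7 of 11 were tested and 0 were called by edgeR in any comparison, with 3 at an unadjusted p under 0.05 for promyelinating SCs against each other class. DESeq2 and limma each called 1, Lama1, against other SCs, and against cycling SCs DESeq2 called 3 (Lama1, Lama4 and Lamc1) and limma 1 (Lama1). Lama1 had reads only in promyelinating SCs, at 7.94 ± 4.28 CPM (SD, n = 2) and in a mean of 4.19% of cells. Lama4 and Lamc1 went the other way and were lower in promyelinating than in cycling SCs. Lamb1 (1317 ± 106 CPM in promyelinating, 1475 ± 334 CPM in other SCs; SD, n = 2) and Lamc1 (299 ± 50.5 and 447 ± 38.7 CPM), the beta and gamma chains of most SC laminins, were the 2 with the most reads per kilobase over all cells. Their partners Lama2 (599 ± 43.8 and 867 ± 197 CPM) and Lama4 (329 ± 71.3 and 608 ± 112 CPM), named after their values were seen, gave -0.46 and -0.81 for promyelinating against other SCs, with adjusted p of 0.479 and 0.29 in edgeR. Of them Lama4 was called in 1 of 19 other settings against other SCs and in 3 of 19 against cycling SCs.

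Collagens and other matrix ligands held 24 tested genes of 27. Against other SCs, 2 were called (8.33%, against 1.78% of all genes), both lower in promyelinating SCs. At an unadjusted p under 0.05 in edgeR 11 were lower, against 7.33% of all genes. DESeq2 called 7 (Col1a1, Col1a2, Col3a1, Col5a1, Col6a2, Nid2 and Tnc), against 7.58% of all genes. By limma 5 were called (Col1a2, Col3a1, Col5a1, Nid2 and Tnc), against 2.84%. Col3a1, a chain of fibrillar collagen III, fell to 2531 ± 179 CPM from 5039 ± 371 CPM in other SCs (log2 fold change -0.92, SE 0.143, adjusted p = 0.0165 in edgeR). Tnc, an anti-adhesive matrix protein, fell to 16.5 ± 2.23 CPM from 101 ± 18.3 CPM (log2 fold change -2.54, SE 0.413, adjusted p = 0.0193). Against cycling SCs, Col1a1 (-0.93) and Nid2 (-0.98) fell as well, with adjusted p of 0.0359 and 0.0323 in edgeR. In that comparison edgeR called 4, DESeq2 9 and limma 5, against 5.93%, 17.1% and 10.1% of all genes. Col1a2, the other of the 2 most abundant genes of this list, gave -0.57 against other SCs (adjusted p = 0.135). Col4a1 and Col4a2, chains of the collagen IV that Adgrg6 binds, named after their values were seen, gave -0.16 and 0.38 against other SCs, with adjusted p of 0.892 and 0.642.

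Other receptors for laminin and collagen, 14 tested of 15, gave 3 calls against other SCs (21.4%, against 1.78% of all genes). Cd44, a receptor for hyaluronan and collagen, fell from 104 ± 17 to 22.7 ± 4.89 CPM (log2 fold change -2.12, SE 0.35, adjusted p = 0.0212 in edgeR). Sdc4, a heparan sulphate proteoglycan that acts beside integrins, fell from 1712 ± 470 to 546 ± 146 CPM (log2 fold change -1.57, SE 0.269, adjusted p = 0.0258). Mag rose from 53.3 ± 31.8 to 456 ± 24 CPM (log2 fold change 3.19, SE 0.503, adjusted p = 0.0173). It encodes a periaxonal adhesion protein of myelinating SCs and is also one of the promyelinating markers. Rpsa, a ribosomal protein also described as a laminin receptor, gave 0.36 (adjusted p = 0.674). Of the 14, 6 had an unadjusted p under 0.05 in edgeR against other SCs, as had 1483 of all 13289 genes. There DESeq2 called 5 (Cd44, Dag1, Ddr2, Mag and Sdc4) and limma 3, against 7.58% and 2.84% of all genes. Against cycling SCs edgeR called 4, DESeq2 7 and limma 5, against 5.93%, 17.1% and 10.1% of all genes.

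Dag1, the laminin receptor dystroglycan, reached 621 ± 15.6 CPM in promyelinating SCs, 395 ± 47.5 CPM in other SCs and 271 ± 33 CPM in cycling SCs. It rose against cycling SCs (log2 fold change 1.15, SE 0.194, adjusted p = 0.0109 in edgeR). Against other SCs it gave 0.74 (SE 0.192, adjusted p = 0.135 in edgeR), with log2 ratios of 0.76 and 0.56 on plates 1 and 2. That comparison was called by DESeq2 and not by limma. Per length, the ratio of Dag1 to Itga6 was 0.497 and 1.01 in cycling, 0.675 and 1.09 in other and 1.14 and 1.76 in promyelinating SCs. Promyelinating SCs had the highest ratio on both plates, and plate 2 was above plate 1 in every class.

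**Figure D5:**
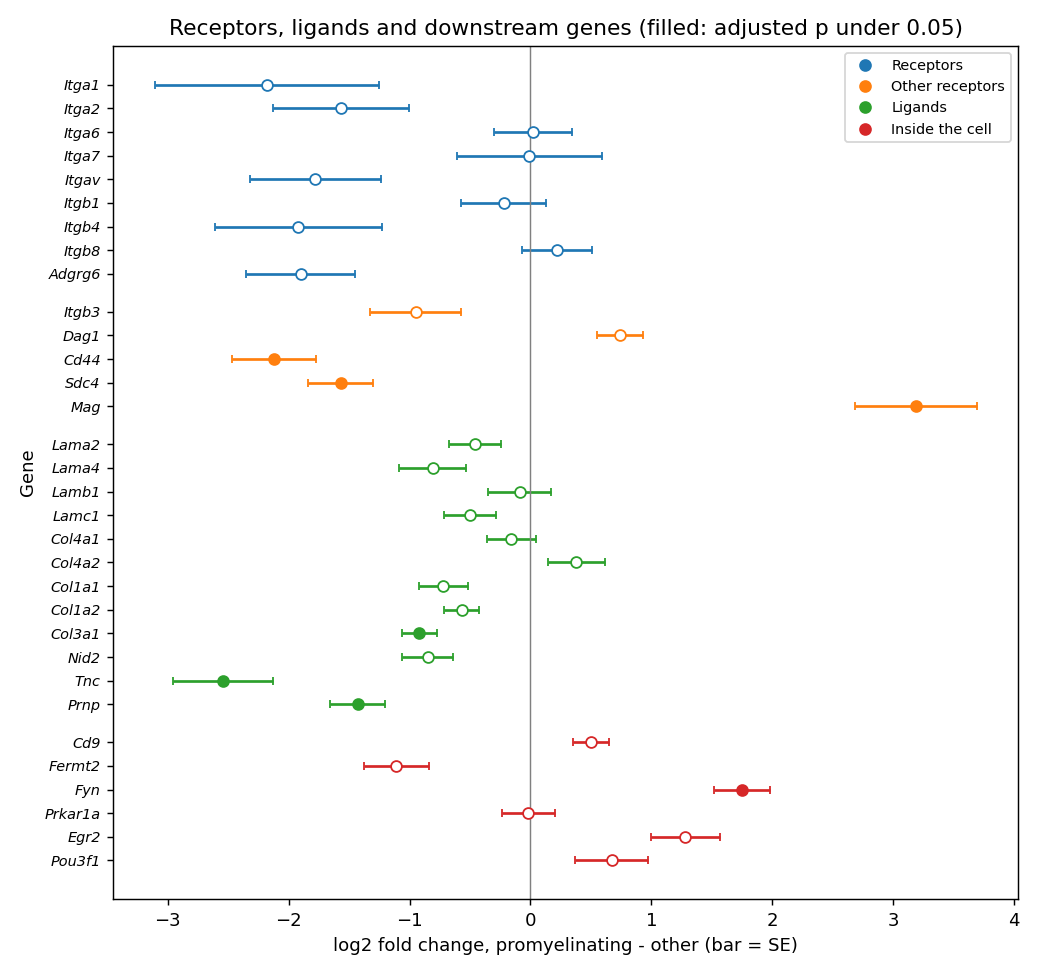
Log2 fold change of promyelinating against other SCs with its standard error, for the receptors, for other receptors, for ligands and for genes acting inside the cell, with filled points where the adjusted p of edgeR was under 0.05. Cd44, Sdc4, Col3a1, Tnc and Prnp lie on the left with filled points, from -2.54 to -0.92, Mag and Fyn on the right at 3.19 and 1.75, and all 9 receptor points are open.

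Of the 20 other integrin chains, 8 could be tested. By edgeR 0 were called against other SCs, with 3 at an unadjusted p under 0.05, while DESeq2 called 1 (Itgae) and limma 1 (Itgb2). Itgb3, the most abundant, took 161 ± 16.7 CPM in other, 78.9 ± 28.7 CPM in promyelinating and 57.1 ± 15.3 CPM in cycling SCs (promyelinating against other -0.95, adjusted p = 0.386), and Itgb5 took 16.3 ± 0.678, 5.71 ± 7.58 and 8.89 ± 2.11 CPM. Against cycling SCs DESeq2 and limma each called 3 (Itga4, Itgae and Itgb2). Itga4 took 4.38 ± 5.79 CPM in promyelinating and 64.4 ± 32.6 CPM in cycling SCs, and Itgb2 9.91 ± 0.756 and 0 CPM. In edgeR only Itgae was called there (adjusted p = 0.0337). It had 1015 reads in 4 of 110 cycling cells and 0 reads in 119 promyelinating cells, at least 381-fold lower when a floor of 3 reads over the class is used. The gene span of Itgae overlaps that of Haspin, a mitotic kinase gene on the opposite strand. Where exons are shared, reads of the pair cannot be told apart without strand.

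Among 35 tested adaptor and signalling genes, 1 was called against other SCs (2.86%, against 1.78% of all genes). Fyn, a kinase that acts downstream of integrins and in myelinating glia, rose from 154 ± 10.8 to 491 ± 69.5 CPM (log2 fold change 1.75, SE 0.234, adjusted p = 0.00801 in edgeR). Fermt2, the integrin activator kindlin-2, fell against cycling SCs (-1.16, adjusted p = 0.0414) and gave -1.11 against other SCs (adjusted p = 0.102). The abundant Pfn1 and Cdc42, regulators of actin, gave -0.16 and 0.38 against other SCs, with adjusted p of 0.912 and 0.514. Of the 35, 6 had an unadjusted p under 0.05 in edgeR there, as had 1483 of all 13289 genes. DESeq2 called 5 (Elmo1, Fermt2, Fyn, Rsu1 and Src) and limma 2 (Fermt2 and Fyn), against 7.58% and 2.84% of all genes. Against cycling SCs edgeR called 2, DESeq2 9 and limma 4, against 5.93%, 17.1% and 10.1% of all genes. Tetraspanins and other lateral partners gave 0 calls among 13 tested in edgeR in all comparisons, with 3 at an unadjusted p under 0.05 for promyelinating SCs against each other class. Against other SCs the log2 fold change was 0.50 for Cd9 (adjusted p = 0.215) and -0.28 for Cd81 (adjusted p = 0.664). DESeq2 called 3 there (Cd47, Cd9 and Slc3a2) and limma 0, and against cycling SCs DESeq2 called 2 (Cd47 and Cd9) and limma 1 (Cd47). Over the 19 other settings Cd9 was called in 1 against other and in 2 against cycling SCs.

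The latent TGF-beta route of alphavbeta8 gave 0 calls among 10 genes in all 3 comparisons in edgeR. At an unadjusted p under 0.05 there were 0 against other SCs, 1 between cycling and other SCs and 1 against cycling SCs. DESeq2 called 0, 1 (Tgfb2) and 1 (Tgfb2) in this order, and limma 0, 0 and 1 (Ltbp1). Smad4 and Ltbp3, its most abundant genes, gave -0.01 and -0.05 against other SCs. Among 32 tested genes of the ligands of Adgrg6 and its cyclic AMP route, 1 was called against other SCs (3.12%, against 1.78% of all genes). This was Prnp, the prion protein whose N-terminal part activates Adgrg6. It fell from 371 ± 83.7 CPM in other SCs to 130 ± 5.77 CPM in promyelinating SCs (log2 fold change -1.43, SE 0.229, adjusted p = 0.0181 in edgeR). Prkar1a, a regulatory subunit of protein kinase A, gave -0.02 (adjusted p = 0.994). Of these 32 genes, 7 had an unadjusted p under 0.05 in edgeR there, as had 1483 of all 13289 genes. DESeq2 called 4 (Adcy5, Adcy8, Egr2 and Prnp) and limma 3 (Akap12, Egr2 and Prnp), against 7.58% and 2.84% of all genes. Against cycling SCs edgeR called 3, DESeq2 8 and limma 5, against 5.93%, 17.1% and 10.1% of all genes.

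Egr2 and Pou3f1, transcription factors of myelination that cyclic AMP induces, rose against cycling SCs by log2 fold changes of 2.01 and 1.67, with adjusted p of 0.00567 and 0.0185. Against other SCs they gave 1.28 and 0.67, with adjusted p of 0.0807 and 0.469. Egr2 is also one of the promyelinating markers, so its level there partly describes the class itself. Promyelinating SCs had the highest mean of Egr2 (320 ± 18 CPM) and the lowest mean of Adgrg6 of the 3 classes. Against other SCs neither gene passed the threshold in edgeR, while DESeq2 and limma called both. Of 20 other adhesion G protein-coupled receptors, 11 were tested and 0 were called by edgeR in any comparison, with 0, 1 and 2 at an unadjusted p under 0.05 for promyelinating against other, cycling against other and promyelinating against cycling SCs. DESeq2 called 0, 1 (Adgrl2) and 2 (Adgrb3 and Adgre5) in this order, and limma 0, 0 and 1 (Adgrb3). Adgre5 took 4.77 ± 3.78 CPM in promyelinating and 11.2 ± 4.18 CPM in other SCs, and Adgra3 17.1 ± 13.5 and 13.8 ± 8.58 CPM.

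The 7 pathway genes called against other SCs (Col3a1, Tnc, Cd44, Sdc4, Mag, Fyn and Prnp) stayed under the threshold in 15 to 18 of 19 other settings. Of those called against cycling SCs, Itgae passed in 10, Fermt2 in 12 and Col1a1 and Nid2 in 14 each.

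Positions set limits on some members. Itga1 overlaps Pelo and Gm49395 on its own strand and Gm10734 on the other, Itga6 overlaps Gm13663, Gm13662, Gm17250 and Gm13739, and Itga7 overlaps Gm25494 and Mettl7b. Itgav overlaps Gm13684 and Dnmt3l-ps1, Itgb4 overlaps B230344G16Rik, and Adgrg6 overlaps Gm10335 and Gm46212. These are overlaps of whole gene spans, and whether exons are shared was not examined. Whether counting used strand is not given in the sources used here, so reads of these members are uncertain where exons are shared. Itga2, Itgb1 and Itgb8 overlap no other gene.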

How the data were processed

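Smart-seq2 libraries of single sorted SCs from P1 sciatic nerve were analysed, 370 wells of plate 1 and 373 of plate 2. The authors mapped reads and counted them per gene, and the deposited values are raw counts with no molecular identifiers. The submitters' processing notes name STAR 2.6.1c, featureCounts and GRCm38.p5. The study's methods name another STAR version and a human assembly, but all IDs are from mouse. Of 25700 IDs, 25587 matched a symbol in GENCODE M21, which also gave positions and union exon lengths. No column was without a sample.

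Wells with at least 1500 genes were kept, with 26673 to 2291613 reads each, and no doublet caller was run. Reads were summed per class and plate. Sums were tested with edgeR 4.0.16 (TMM, filterByExpr, robust quasi-likelihood test, no plate term) in R 4.3.3, and p-values were adjusted by Benjamini-Hochberg over 13289 genes. The genes that set the classes were not tested. Standard errors were derived from the F statistic. CPM are reads per 1000000 of the sum, with no TMM. The labels call the plates technical runs, while the design text names independent samples; sums of the same plate come from the same mice, so plate numbers pair the sums by design. Across 3713 genes, plate 1 minus plate 2 correlated with Pearson r of 0.102 (cycling and promyelinating), 0.207 (cycling and other) and 0.151 (promyelinating and other).

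Thinned shares left out 27 cells with fewer than 100000 reads. A floor is 3 reads over a class. Named genes were the 9 members, called genes of the pathway lists (up to 4 per direction), the 2 most abundant of each list per length and the genes of greatest likeness. The members and lists were chosen with earlier results of these data known. Alternatives were the plate block, DESeq2 1.42.0, limma 3.58.1 on log2(mean CPM + 1), no TMM, no filter, limits of 20 or 100 CPM or 1 read, cells of at least 1000 or 2500 genes, thinning to 50000 or 100000 reads, at least 5 reads, each sum or plate left out, no division by length and chains of the members only. One on the dissociation response was added after seeing the data. The steps were tested on simulated data for promyelinating against other SCs. There edgeR called 1 of 100 genes changed 2-fold and 46 of 100 genes changed 8-fold. A gene that was not called can therefore still differ between classes.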

Additional observations from a re-analysis of the deposited data

Results flagged for a closer look

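The 122 wells with fewer than 1500 genes, which entered no comparison, still held reads of 8 members above the limit of 3 reads (0.143 CPM of their 20955228 summed reads). In CPM of that sum, Itgb1 reached 536, Itga6 436, Itgav 252, Itga2 183, Adgrg6 96.9, Itgb8 95.6, Itga1 87.7 and Itgb4 12.4. These reads came from few wells, from 39 of 122 for Itgb1 and 22 for Itga6 to 17 for Itgav and 2 for Itga1. Itga7 had 1 read.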

How the results depend on the processing

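The 5 members lower in promyelinating than in other SCs, Itga1, Itga2, Itgav, Itgb4 and Adgrg6, kept that direction in all 19 other settings fitted. The number of members called there (0) became 2 with DESeq2 and 1 with no filter on low counts, with limma and with thinned cells, and ranged from 0 to 1 when a sum was left out. Against cycling SCs the count (1) became 2 with the plate as a replicate block, 3 with DESeq2, 2 with limma and 2 with thinned cells. It became 0 without TMM, with limits of 20 CPM, 100 CPM or 1 read, with cells of at least 2500 genes, without the cell passing both limits and in cells of low dissociation response, and ranged from 0 to 1 when a sum was left out. The 1 was Itga1, without cycling plate 2 and without promyelinating plate 1, and Itgav was called in 0 of these 6 fits. The block changed no other call of a member.

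All genes called numbered 237 for promyelinating against other, 130 for cycling against other and 788 for promyelinating against cycling SCs. DESeq2 gave 1007, 794 and 2271, no filter 521, 316 and 1288, limma 378, 230 and 1340, and the cells of low dissociation response 58, 45 and 311. With a sum left out the counts ranged from 157 to 312 (157 without other SCs of plate 2), from 101 to 213 (203 and 213 without promyelinating plates 1 and 2) and from 591 to 780. Leaving TMM out moved the median of all genes for cycling against other SCs from -0.07 to -0.20.

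Signs turned in these fits only for members not called in that comparison. For promyelinating against other SCs, Itga6 became -0.06 without TMM and -0.03 with limits of 1 read, and ranged from -0.30 to 0.30 with a sum or plate left out. Itga7 became 0.01 with the block, with 20 CPM and with 1000 genes, 0.03 with DESeq2 and with 100 CPM, 0.10 in thinned cells and 0.26 at low dissociation response, and ranged from -0.19 to 0.05 with a sum or plate left out. Itgb1 and Itgb8 ranged from -0.64 to 0.39 and from -0.11 to 0.47 likewise. For cycling against other SCs, Itga2 became 0.29 with limma and 0.15 in thinned cells, Itga7 -0.02 with 100 CPM and Itgav -0.09 with 2500 genes. At low dissociation response Itga1 became -0.03, Itga6 0.26 and Itgb4 0.10. With a sum or plate left out the ranges there were from -0.89 to 1.52 for Itga1, from -0.60 to 0.32 for Itga2, from -0.59 to 0.26 for Itga6, from -0.90 to 1.01 for Itga7, from -0.18 to 0.84 for Itgb1 and from -1.34 to 0.09 for Itgb4. For promyelinating against cycling SCs, Itga6 became -0.24 at low dissociation response and Itga7 0.05 with 100 CPM, and with a sum or plate left out they ranged from -0.22 to 0.61 and from -1.02 to 0.91. The cause was not tested. Chain shares, promyelinating minus other SCs, moved for Itgb4 from -4.11 percentage points to -5.28 with no division by length, -4.70 with 2500 genes and -6.25 with the members only, and for Itgb8 from 5.49 to 10.3 with no division by length.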
